A study of Homo sapiens with 6 samples.

Results

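The transcriptome after an siRNA against EWSR1 was set directly against that after an siRNA against FLI1 in TC32, an established Ewing sarcoma cell line. The comparison takes the 2 libraries labelled siEWSR1 and the 2 labelled siFLI1, 4 of the 6 libraries of the series, and asks what differs between silencing through one fusion partner and through the other. Genes entered where FPKM was at least 1 in at least 2 of these 4 libraries, which left 12808 of 26931 gene symbols. FPKM (fragments scaled to transcript length and to the library's mapped fragments) is a level per length and per library. All groups were the same TC32 cells, which carry the fusion natively, transfected with a control siRNA (siNeg), siEWSR1 or siFLI1. Total RNA was taken 48 h later. The 2 siNeg libraries served to place each siRNA group. All libraries come from this 1 line. The siRNA sequences and target regions were not given in the sources used here, and nothing says that the replicates were separate cultures. P-values therefore measure only how far these samples spread, a spread that may be technical.

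Ewing sarcoma is driven by a fusion that joins the start of EWSR1 to the DNA-binding end of FLI1. The fusion protein, EWS-FLI1, binds GGAA repeats and ETS sites, where it activates some genes and represses others, among them genes of matrix, adhesion and mesenchymal differentiation. The intact alleles differ: EWSR1 encodes a FET protein, which binds RNA and is present in most cells, and FLI1 an ETS transcription factor of blood and endothelial cells. An siRNA against EWSR1 can thus reach the normal EWSR1 transcript and one against FLI1 the normal FLI1 transcript, and gene-level FPKM adds normal and fusion transcripts together.

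The libraries had 12079 to 12741 genes at 1 FPKM or more. The deposited intervals imply 15154777 to 16293923 fragments per library. All 12 Ewing sarcoma markers stood at 1 FPKM or more in every library, and their summed level was 1093 and 1098 with siNeg, 609.5 and 511.6 with siEWSR1, and 591.2 and 558.8 with siFLI1. Epithelial markers, 14 in all, summed to 29.7 to 38.3 FPKM. The 11 endothelial markers summed to 18.4 to 27.4 and the 13 blood cell markers to 17.2 to 28.8, with CD3E, HBB and HBG1 listed at 0 in all libraries. Only 2 epithelial markers (KRT18, OCLN), 1 endothelial (EGFL7) and 2 blood markers (LCP1, CD68) reached 1 FPKM in every library. Most of each sum came from 1 gene: KRT18 (20.6 to 27.3), EGFL7 (16.5 to 26.6) or LCP1 (12.3 to 23.8). Small RNAs held 50% and 43.5% of the summed FPKM with siEWSR1 and 32.5% and 37.7% with siFLI1, and the part of this gap in the differences below was not tested beyond the rescaled fits.

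EWSR1 lies on chromosome 22 (hg19, 29663998 to 29696515). Its level was 34.6 and 32.3 FPKM with siEWSR1, 51.2 and 50.2 with siFLI1, and 46.5 and 47.2 with siNeg. The siEWSR1 libraries were the lowest of the 6 and the siFLI1 libraries the highest, with no overlap. EWSR1 was 1.51-fold lower with siEWSR1 than with siFLI1, a log2 difference of -0.59 ± 0.06 (SE; limma adjusted p = 0.00824; 95% interval -0.73 to -0.46). That call ended without siFLI1 replicate 1 (-0.58, adjusted p = 0.0811) or siFLI1 replicate 2 (-0.61, adjusted p = 0.107). FLI1 (chromosome 11, 128556430 to 128683162, overlapping SENCR and LOC101929538) stood at 10.4 and 10.6 FPKM with siEWSR1, 8.98 and 8.56 with siFLI1, and 10.9 in each siNeg library. FLI1 was thus lowest in the siFLI1 libraries, and its difference between the siRNAs of 0.25 ± 0.06 missed the threshold (limma adjusted p = 0.063, interval 0.11 to 0.39). Against siNeg, FLI1 was called lower with siFLI1 (-0.29, limma adjusted p = 0.00418) and was not called with siEWSR1 (-0.04, 0.541). EWSR1 against siNeg was called lower with siEWSR1 (-0.48, limma adjusted p = 0.000395) and was not called with siFLI1 (0.11, 0.112). TAF15, which encodes an RNA-binding relative of EWSR1, differed by 0.17 on the log2 scale and was not called (limma adjusted p = 0.168).

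Across all genes, 132 (1.03%) were higher and 464 (3.62%) lower with siEWSR1 than with siFLI1, 4.65% in either direction (limma, adjusted p under 0.05). At an unadjusted p under 0.05 there were 3044 genes (23.8%). Most differences were small: 30 of the higher and 160 of the lower genes differed 1.5-fold or more, 6 and 26 of them 2-fold or more, on the log2(FPKM + 0.5) scale, which understates the change of low genes. The median absolute log2 difference was 0.483 over called genes and 0.107 over all genes tested, and the signed median over all genes was -0.033. Lower calls made up 77.9% of the total, against 60.9% with quantile normalization (239 higher, 373 lower), 67.7% when each library's median ratio was set to 0 (179 and 375) and 61.5% once transcript length and GC trends were taken out (257 and 411). The calls depended on single libraries of 2-library groups. Without siFLI1 replicate 1 there were 5 higher and 18 lower genes, without siFLI1 replicate 2 there were 3 and 2, and without siEWSR1 replicate 2 there were 12 and 127. Without siNeg replicate 1 or 2 there were 19 higher genes and 143 or 142 lower. Of the 596 calls, 4 were kept without siFLI1 replicate 2, those of MIR3911, SNORA51, RNVU1-8 and SOD2 (the last chosen after its values were seen), and none of the 596 changed sign in any alternative fit.

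**Figure D1:**
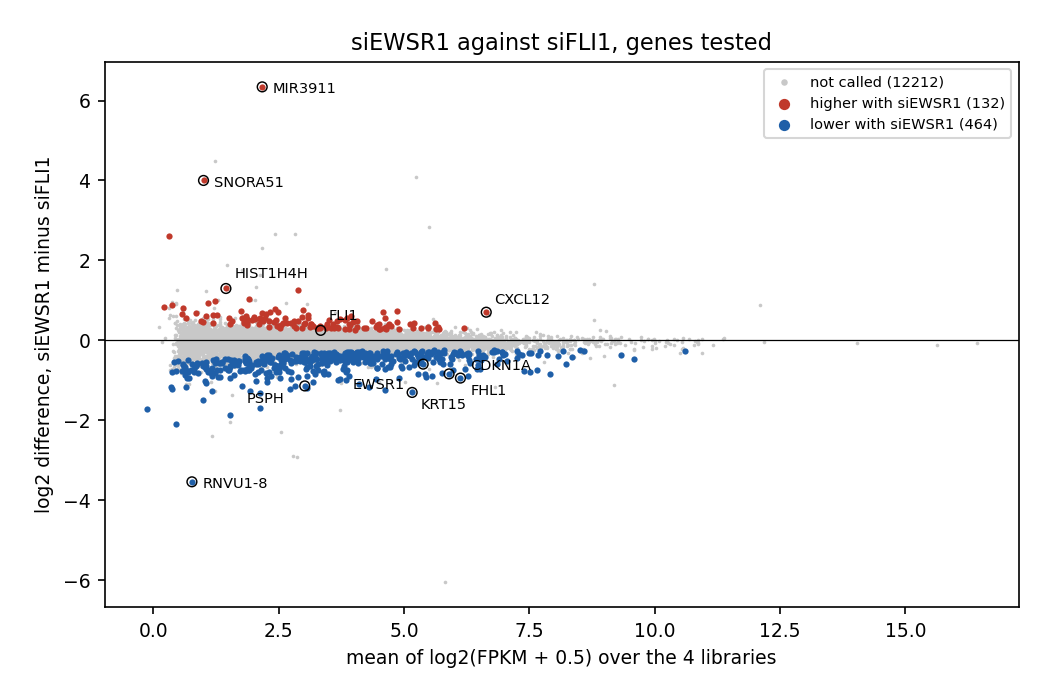
Log2 difference of siEWSR1 minus siFLI1 (y axis) against the mean log2(FPKM + 0.5) of the 4 libraries (x axis), 1 point per gene tested. The 132 genes called higher (red) and 464 called lower (blue) lie mostly within 1 log2 unit of 0, and circled genes are named in the text.

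The siNeg libraries placed these genes in 3 patterns. Of the 464 lower genes, 285 (61.4%) had both siNeg libraries beyond the siEWSR1 group, below every siRNA library, so that the genes stood higher with either siRNA and highest with siFLI1. In 72 (15.5%) siNeg lay between the groups and in 51 (11%) beyond the siFLI1 group, and the other 56 touched a group. Of the 132 higher genes, 61 had siNeg beyond the siFLI1 group, 29 beyond the siEWSR1 group, 17 between and 25 touching one. Over all genes tested, siNeg was between the groups in 2.21%, beyond siEWSR1 in 22.8%, beyond siFLI1 in 15.8% and touching a group in 59.2%. A position was given only where the siRNA groups did not overlap, and all other genes count as touching a group. The groups did not overlap in 20.2% of genes tested with siEWSR1 higher and in 33.1% with siEWSR1 lower. Calls favour such gaps, so the shares of called genes and of all genes are not comparable. Changes against siNeg are given side by side below. They share the siNeg libraries, and 33.9% of genes tested were called higher and 30.3% lower with siEWSR1 against siNeg, and 36.4% and 28.8% with siFLI1.

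Several of the lower genes with large differences were near 0 in control cells. KRT15, a keratin of basal epithelium (chromosome 17, 39669997 to 39675270, overlapping MIR6510), stood at 0.193 and 0.138 FPKM with siNeg, 20 and 24.9 with siEWSR1, and 55.4 and 56.1 with siFLI1. ALDH1A3, which makes retinoic acid from retinaldehyde, stood at 0.154 and 0.13 FPKM in that order of groups, then 3.69 and 3.97, then 9.02 and 10.2. In both genes siNeg was lowest and siFLI1 highest. The rule that named them required the siRNA groups not to overlap, so that gap is no separate result. The log2 differences of siEWSR1 minus siFLI1 were -1.30 ± 0.11 for KRT15 (limma adjusted p = 0.0047) and -1.22 ± 0.09 for ALDH1A3 (0.00369).

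The same order of groups held for PLAT, the tissue plasminogen activator, at 0.177 and 0.27 FPKM with siNeg, 1.96 and 2.63 with siEWSR1 and 6.19 and 6.75 with siFLI1. COLEC12, a scavenger receptor with a collagen-like stalk, stood at 0.0397 and 0.00938, 10.3 and 12.1, and 22.3 and 26.9. LOXL1, which cross-links elastin and overlaps LOXL1-AS1, stood at 7.9 and 10.5, 17.1 and 14.2, and 37.5 and 37.7. PLAT was 2.51-fold, LOXL1 2.37-fold and COLEC12 2.14-fold lower with siEWSR1 than with siFLI1. BDKRB1, a receptor for kinin peptides, was 2.4-fold lower, and ORAI3, a subunit of store-operated calcium channels, 2.27-fold lower. Without siFLI1 replicate 2 none of these 7 genes passed (limma adjusted p = 0.0625 to 0.13, differences -1.29 to -0.97), and without siFLI1 replicate 1 ALDH1A3 alone did (0.0394 to 0.0928 over the 7). All 7 passed when any of the other 4 libraries was left out.

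**Figure D2:**
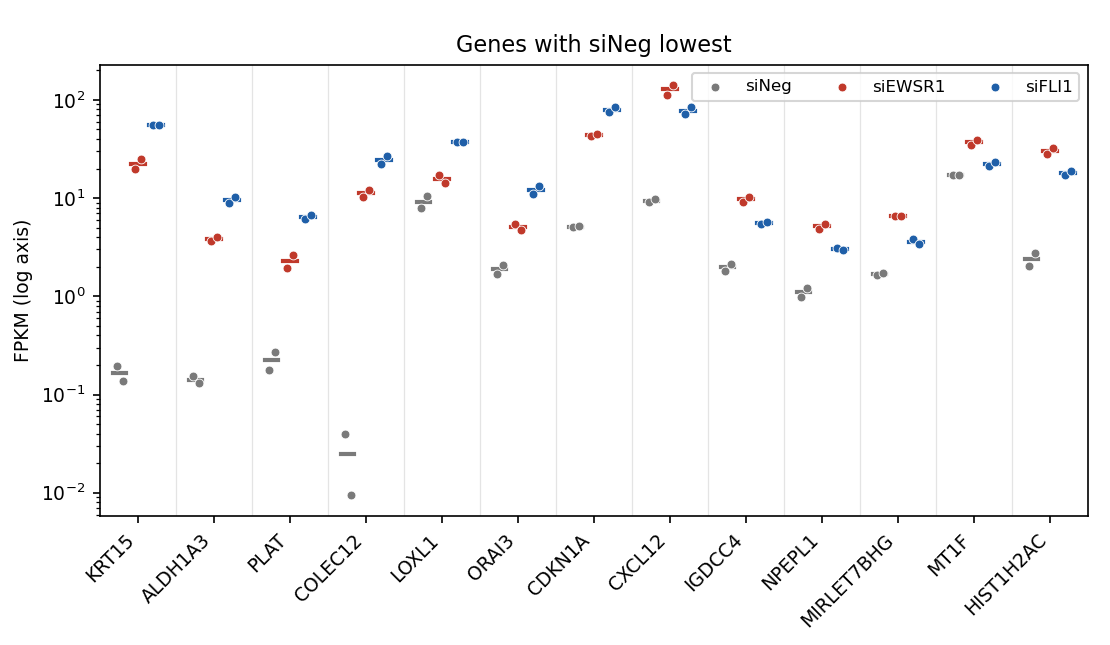
FPKM (log axis) in each library for 13 genes with siNeg lowest, siNeg in grey, siEWSR1 in red and siFLI1 in blue, with a bar at the mean of each 2 libraries. From KRT15 to CDKN1A the siFLI1 libraries are highest, and from CXCL12 to HIST1H2AC the siEWSR1 libraries are.

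Some genes were closer to control with siEWSR1 than with siFLI1. GNG12, a G protein gamma subunit (chromosome 1, 68167149 to 68299155), stood at 4.67 and 3.84 FPKM with siNeg, 3.89 and 4.61 with siEWSR1, and 9.01 and 11.2 with siFLI1. GNG12 levels with siEWSR1 lay within the siNeg range, and those with siFLI1 lay above all others (siEWSR1 minus siFLI1 -1.15 ± 0.14, limma adjusted p = 0.0148). PLPP1, a phosphatase of lipid phosphates that overlaps SKIV2L2, stood at 9.59 and 8.4, 12.5 and 12.8, and 27.3 and 30.5. Against siNeg, PLPP1 rose by 0.47 on the log2 scale with siEWSR1 and by 1.63 with siFLI1, both called, and the direct difference was -1.16 ± 0.08 (limma adjusted p = 0.00368). SOD2, the mitochondrial superoxide dismutase, which overlaps WTAP and ACAT2, and RGS3, a regulator of G protein signalling, were chosen after their values were seen. SOD2 stood at 21.1 and 21.5 with siNeg, 21.1 and 20.8 with siEWSR1, and 46.0 and 36.7 with siFLI1, and RGS3 at 7.41 and 7.63, 8.91 and 8.24, and 18.1 and 16.8. Their differences were -0.95 ± 0.10 and -0.99 ± 0.07, and RGS3 lost its call without siFLI1 replicate 2. GNG12 lost its call without siFLI1 replicate 1 (adjusted p = 0.0642), and GNG12 and PLPP1 without siFLI1 replicate 2 (0.0595 to 0.129).

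The siNeg libraries lay between the siRNA groups in 6 genes named for that position, as for EWSR1. PTGFRN, a membrane partner of tetraspanins, stood at 11.6 and 11.8 FPKM with siNeg, 9.43 and 8.63 with siEWSR1, and 17.4 and 18.7 with siFLI1. LAMTOR1, which anchors the Ragulator complex of mTOR signalling on lysosomes and overlaps LRTOMT, stood at 42.3 and 45.5, 35.2 and 33.3, and 61.8 and 65.7. RAB34, a small GTPase of cilium assembly, stood at 65.6 and 62, 49.2 and 47.8, and 79 and 84. These genes fell with siEWSR1 and rose with siFLI1, each change against siNeg being called. The changes were -0.35 and 0.60 for PTGFRN, -0.35 and 0.53 for LAMTOR1, and -0.39 and 0.35 for RAB34. The rule that named these genes required siNeg between the groups, so the opposite directions are no separate result. The direct differences were -0.96 ± 0.07, -0.89 ± 0.06 and -0.74 ± 0.06 (limma adjusted p = 0.00368, 0.00368 and 0.00412).

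ARPC4, a subunit of the Arp2/3 actin nucleator that overlaps TADA3, and B3GALNT2, a glycosyltransferase acting on dystroglycan that overlaps TBCE, showed the same order. ARPC4 stood at 35.9 and 34.5 FPKM with siNeg, 31.8 and 31.2 with siEWSR1, and 54.9 and 58.6 with siFLI1. ANAPC13, a subunit of the anaphase-promoting complex that overlaps CEP63, stood at 18.5 and 16.5, 10.6 and 10.3, and 19 and 20.4, so its gap lay mainly between siNeg and siEWSR1 (-0.72, limma adjusted p = 0.000234, against 0.17 and 0.0853 with siFLI1). Without siFLI1 replicate 1, ANAPC13 and B3GALNT2 lost their calls against siFLI1 (adjusted p = 0.0354 to 0.0594 over the 6), and without siFLI1 replicate 2 all 6 did (0.0595 to 0.107). They passed when any other library was left out.

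**Figure D3:**
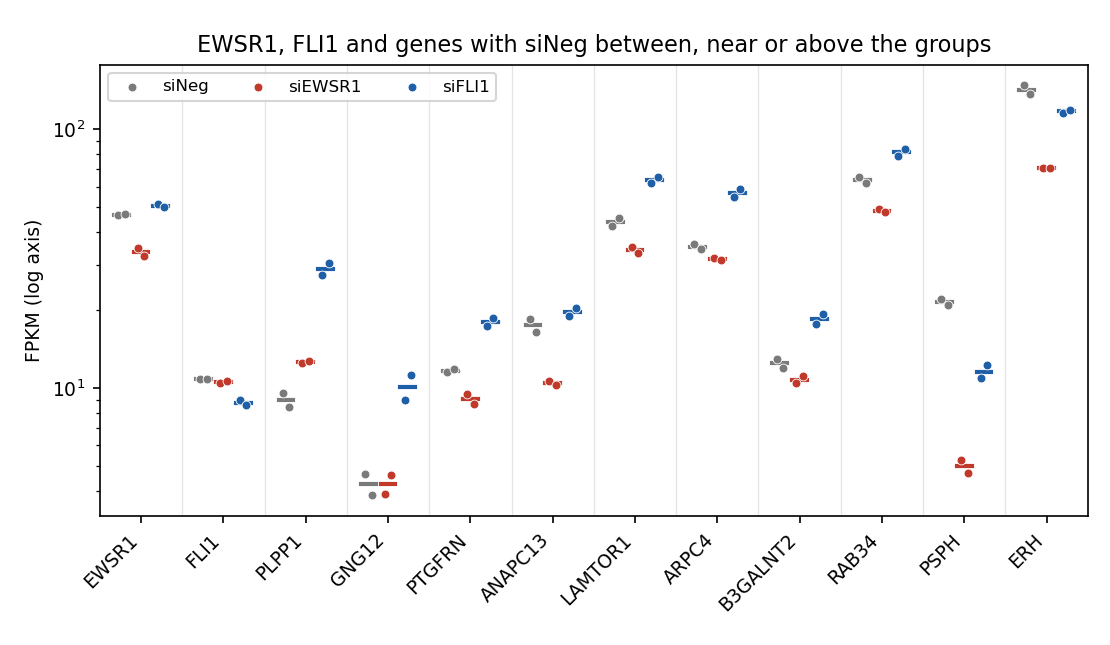
FPKM (log axis) in each library for EWSR1, FLI1 and 10 other named genes, siNeg in grey, siEWSR1 in red and siFLI1 in blue, with a bar at the mean of each 2 libraries. In EWSR1 and from PTGFRN to RAB34 the grey points lie between the red and the blue. FLI1 is the gene shown whose siFLI1 libraries are lowest.

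PSPH and ERH were lower than in control cells with either siRNA and lowest with siEWSR1. PSPH, the phosphatase of the last step of serine synthesis (chromosome 7, 56078744 to 56119268), stood at 22 and 20.8 FPKM with siNeg, 5.25 and 4.69 with siEWSR1, and 10.9 and 12.2 with siFLI1. ERH, a small protein with roles in RNA processing (chromosome 14, 69846840 to 69865021), stood at 148 and 137, 70.9 and 70.6, and 115 and 119. PSPH was 2.2-fold and ERH 1.65-fold lower with siEWSR1 than with siFLI1 (-1.14 ± 0.08 and -0.72 ± 0.06, limma adjusted p = 0.00368 and 0.00412). Both have near-identical copies elsewhere in the genome, and how the authors' counting shared such reads was not stated in the sources used here. ERH lost its call without siFLI1 replicate 1 (adjusted p = 0.0571), and PSPH and ERH without siFLI1 replicate 2 (0.0595 to 0.0847).

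Promoters were searched because EWS-FLI1 and FLI1 bind ETS sites. RefSeq promoters of build GRCh38.p14 were found for 6772 of the genes tested. The 8-letter ETS site CCGGAAGT was looked for on both strands in the 250 bases before each start, and it contains the 4-letter core GGAA, so the searches overlap. The site was in 579 of 6772 promoters (8.55%), in 10 of 254 promoters of lower genes (3.94%) and in 2 of 63 of higher genes (3.17%). GGAA itself was in 92.5% of all promoters, 92.9% of the lower and 92.1% of the higher. The repeat GGAAGGAA was in 193 of all promoters (2.85%), 8 of the lower (3.15%) and 2 of the higher (3.17%). Promoters of ERH and of TPM1, a tropomyosin described below, are shown as named genes that hold CCGGAAGT, in capitals, on either strand. The ERH stretch lies at chr14:69398300-69398549 on the minus strand with 2 matches and the TPM1 stretch at chr15:63048239-63048488 on the plus strand with 1. The starts are those of the RefSeq promoters and were not matched to the hg19 gene spans, so a stretch may lie inside a gene. A match describes these letters and is no evidence of binding.
ERH: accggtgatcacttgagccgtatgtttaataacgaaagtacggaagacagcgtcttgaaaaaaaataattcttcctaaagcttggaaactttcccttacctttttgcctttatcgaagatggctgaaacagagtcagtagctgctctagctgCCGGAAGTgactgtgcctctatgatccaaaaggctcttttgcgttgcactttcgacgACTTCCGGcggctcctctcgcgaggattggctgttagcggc
TPM1: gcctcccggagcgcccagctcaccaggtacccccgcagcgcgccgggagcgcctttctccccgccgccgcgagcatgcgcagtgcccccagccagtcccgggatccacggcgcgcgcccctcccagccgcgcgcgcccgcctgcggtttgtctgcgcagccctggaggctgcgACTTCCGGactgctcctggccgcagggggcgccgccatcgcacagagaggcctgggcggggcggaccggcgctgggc

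Among genes higher with siEWSR1, CXCL12, the chemokine ligand of CXCR4 (chromosome 10, 44865601 to 44880545), was the most abundant named. CXCL12 stood at 9.15 and 9.71 FPKM with siNeg, 113 and 142 with siEWSR1, and 71.3 and 84.4 with siFLI1. IGDCC4, a membrane protein of the immunoglobulin superfamily, stood at 1.82 and 2.15, 9.17 and 10.3, and 5.4 and 5.77. NPEPL1, an aminopeptidase-like gene that overlaps STX16-NPEPL1, stood at 0.99 and 1.23, 4.81 and 5.49, and 3.09 and 2.97. In these genes siNeg was lowest and siEWSR1 highest, and the rule that named them required no overlap between the siRNA groups. The differences of siEWSR1 minus siFLI1 were 0.71 ± 0.12 for CXCL12 (limma adjusted p = 0.0338), 0.75 ± 0.10 for IGDCC4 (0.0168) and 0.68 ± 0.11 for NPEPL1 (0.0276).

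In other higher genes siFLI1 lay below siNeg. WWC2, a regulator of Hippo signalling that overlaps WWC2-AS1, stood at 10.1 and 9.33 FPKM with siNeg, 5.65 and 5.35 with siEWSR1, and 3.49 and 3.12 with siFLI1. INIP, a subunit of a complex that binds single-stranded DNA, stood at 6.24 and 6.08, 5.92 and 7.45, and 3.93 and 3.88. WWC2 fell with either siRNA (-0.77 and -1.42 against siNeg), whereas INIP fell with siFLI1 (-0.60, limma adjusted p = 0.00247) and was not called with siEWSR1 (0.10, 0.423). WWC2 was 1.58-fold and INIP 1.62-fold higher with siEWSR1 than with siFLI1. Of these 5 genes and MIRLET7BHG below, none passed without siFLI1 replicate 1 (adjusted p = 0.0571 to 0.158) or siFLI1 replicate 2 (0.107 to 0.191). Without siEWSR1 replicate 2, MIRLET7BHG and WWC2 passed (0.0382 to 0.0982 over the 6), and without siNeg replicate 1 or 2, CXCL12 and INIP did not (up to 0.0743 and 0.074).

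Among host transcripts of microRNAs named here, MIRLET7BHG and MIR100HG stood higher and MIR205HG lower with siEWSR1 than with siFLI1. MIRLET7BHG, the long non-coding host of let-7a and let-7b (hg19, chromosome 22, 46481877 to 46509808), stood at 1.66 and 1.72 FPKM with siNeg, 6.6 and 6.56 with siEWSR1, and 3.82 and 3.4 with siFLI1. It was 1.73-fold higher with siEWSR1 than with siFLI1 (0.79 ± 0.08, limma adjusted p = 0.0109). MIR100HG, host of miR-100 and miR-125b, and MIR205HG, host of miR-205, were chosen after their values were seen. MIR100HG stood at 5.62 and 5.72, 16.3 and 21.1, and 11 and 12.8 (0.62 ± 0.13, adjusted p = 0.0495), and MIR205HG was listed at 0 with siNeg, at 0.832 and 1.22 with siEWSR1 and at 4.65 and 5.32 with siFLI1 (-1.85 ± 0.15, adjusted p = 0.00412). MIR205HG met the filter only through the siFLI1 group, where it is high, so its call supports nothing here. MIR205HG also lost that call without either siFLI1 library, and MIR100HG kept its call in 6 of 17 alternative fits. Mature microRNAs were not measured: the rows of MIRLET7A3, MIRLET7B, MIR100 and MIR125B1 were listed at 0 in all 6 libraries, and MIR205 at 42.8 in siFLI1 replicate 2 and 0 in the other 5. The mature sequences are shown from RefSeq (GRCh38.p14), with the seed, bases 2 to 8, in capitals. The let-7 pair share a seed and the others have one each.
hsa-let-7a-5p: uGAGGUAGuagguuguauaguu
hsa-let-7b-5p: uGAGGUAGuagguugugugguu
hsa-miR-100-5p: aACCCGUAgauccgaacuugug
hsa-miR-125b-5p: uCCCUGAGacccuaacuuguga
hsa-miR-205-5p: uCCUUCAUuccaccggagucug

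Gene lists were then read for calls in each direction, beside 1.03% of all genes higher and 3.62% lower and a median difference of -0.033. The lists were written with earlier results of these data known, and counts over measured members describe them. Of 33 EWS-FLI1-repressed targets measured of 36, 8 were lower with siEWSR1 and 0 higher, with a median of -0.18. ITGA11, 1 of the 8, met the filter only through the siFLI1 group, where it is high. Of 45 EWS-FLI1-activated targets measured of 47, 1 was higher, the transcription factor SOX6 (0.31), and 1 lower, the uridine phosphorylase UPP1 (-0.32), with a median of 0.04. NR0B1, a nuclear receptor activated by the fusion, stood at 204 and 234 FPKM with siNeg, 78 and 47 with siEWSR1, and 69.0 and 56.4 with siFLI1. NR0B1 levels overlapped between the siRNA groups, and the difference was -0.04 with an interval of -0.58 to 0.50. Against siNeg the repressed list had a median of 1.15 with siEWSR1 (23 higher, 5 lower) and 1.68 with siFLI1 (24 and 5).

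CDKN1A, a repressed target encoding the p21 inhibitor of cyclin-dependent kinases, stood at 5.02 and 5.24 FPKM with siNeg, 43.3 and 44.9 with siEWSR1, and 75 and 83.7 with siFLI1. It was 1.79-fold lower with siEWSR1 than with siFLI1 (-0.84 ± 0.07, limma adjusted p = 0.00456). DKK1, a secreted WNT inhibitor, stood at 36.5 and 42.6 with siEWSR1 and 55.3 and 59.1 with siFLI1 (-0.53 ± 0.10, adjusted p = 0.0362), a call kept in 7 of 17 alternative fits. IGFBP3, a binding protein of insulin-like growth factors and the best known repressed target, went the other way at 494 and 560 against 425 and 456 and was not called (0.26 ± 0.07, adjusted p = 0.103). Quantile normalization gave 2 repressed targets higher and 5 lower, and removal of length and GC trends 1 and 8.

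Of 37 extracellular matrix genes measured of 45, 7 were lower with siEWSR1 than with siFLI1 and 0 higher, with a median of -0.16. COL1A1, a chain of type I collagen, stood at 6.9 and 8.09 FPKM with siNeg, 102 and 99 with siEWSR1, and 134 and 144 with siFLI1 (-0.47 ± 0.08, limma adjusted p = 0.0338). COL6A2, a collagen VI chain, stood at 46.8 and 41.2 with siEWSR1 and 59.1 and 61.8 with siFLI1, and LAMB1, a laminin chain, at 139 and 150 against 183 and 187. FBLN1, fibulin, differed by -0.37, NID1, nidogen, by -0.47 and FN1, fibronectin, by -0.26, with the call of FN1 kept in 4 of 17 alternative fits. The integrin chain ITGA11, a collagen receptor on the repressed list, was lower with siEWSR1 (0.657 and 0.786 against 1.56 and 1.49 FPKM). The fold was 1.66 on the log2(FPKM + 0.5) scale, which understates the ratio of such low values. ITGA11 met the filter only through the siFLI1 group, where it is high, so its call supports nothing here. The matrix count was 1 higher and 3 lower with quantile normalization and 1 and 7 without length and GC trends. Of PLAT, LOXL1, COL1A1, NID1, CDKN1A and ITGA11, CDKN1A alone passed without siFLI1 replicate 1 (adjusted p = 0.0354 to 0.138 over the 6) and none without siFLI1 replicate 2 (0.0595 to 0.219). COL1A1, NID1 and ITGA11 also lost their calls without siEWSR1 replicate 2 (up to 0.103), and NID1 and ITGA11 without siEWSR1 replicate 1 (up to 0.059) or siNeg replicate 1 or 2 (up to 0.0681 and 0.0679).

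Of 37 measured genes of the actin cytoskeleton and of SRF or YAP targets, 8 were lower with siEWSR1 and 0 higher, with a median of -0.17, and 33 of the 37 values were below 0, as were 58.1% of all genes tested. FHL1, a LIM-domain protein of muscle (chromosome X, 135228861 to 135293518), stood at 26.4 in each siNeg library, 50 and 49.6 with siEWSR1, and 93 and 99.7 with siFLI1. TPM1 (chromosome 15, 63334838 to 63364113) stood at 12.9 and 13.3, 56.3 and 59.3, and 94.9 and 95.4. FHL1 was 1.92-fold and TPM1 1.64-fold lower with siEWSR1 than with siFLI1 (-0.94 ± 0.05 and -0.71 ± 0.05, limma adjusted p = 0.00209 and 0.00368). The smooth-muscle actins ACTG2 and ACTA2 differed by -0.92 and -0.48, and the calponin CNN2 by -0.62.

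TAGLN2, an actin-binding transgelin, took another route: it stood at 132 and 129 FPKM with siNeg, 69.5 and 61.0 with siEWSR1, and 99.3 and 94.1 with siFLI1, so that it was lowest with siEWSR1 (-0.57). AMOTL2, a YAP-regulated angiomotin, stood at 4.40 and 4.69, 4.50 and 3.82, and 6.46 and 6.90 (-0.63). The count was 0 higher and 7 lower with quantile normalization and 0 and 10 without length and GC trends. Of FHL1, TPM1 and ACTG2, FHL1 alone passed without siFLI1 replicate 1 (adjusted p = 0.0216 to 0.153 over the 3) and none without siFLI1 replicate 2 (0.0505 to 0.238). ACTG2 also lost its call without siEWSR1 replicate 1 or 2 (0.0744 and 0.0702) and siNeg replicate 1 or 2 (0.0556 and 0.0563).

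**Figure D4:**
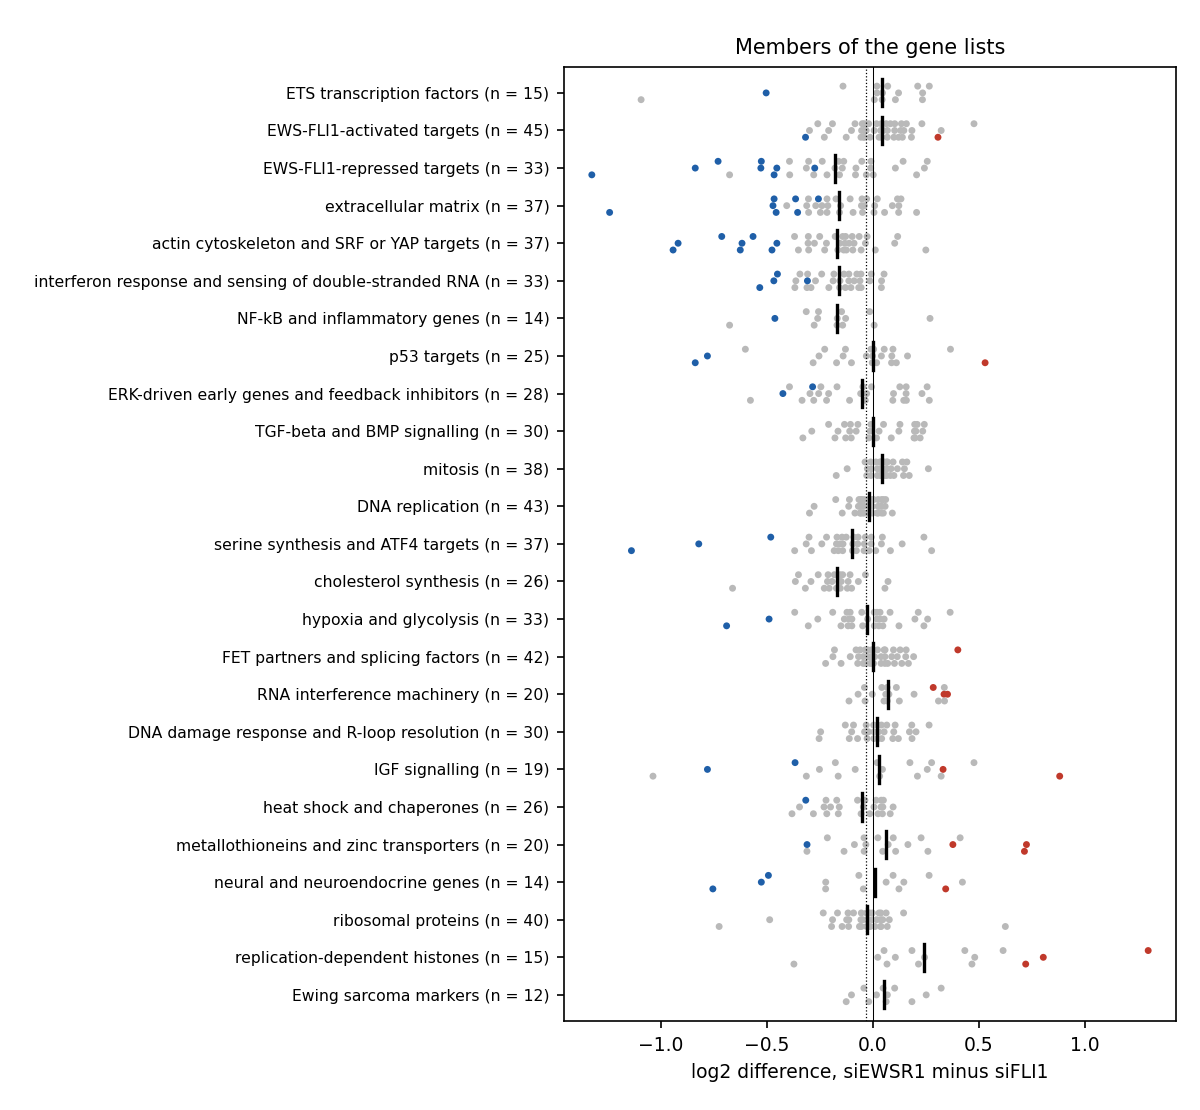
Log2 difference of siEWSR1 minus siFLI1 for each measured member of the gene lists, with members called higher in red, called lower in blue and not called in grey. Black bars are list medians and the dotted line is the median of all genes tested (-0.033). The repressed, matrix and actin medians lie below it at -0.18, -0.16 and -0.17. So do other lists, among them cholesterol synthesis (-0.17), NF-kB (-0.17) and interferon (-0.16), while lists such as mitosis (0.04) lie above it.

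Genes of insulin-like growth factor signalling split. IGF2, the growth factor (overlapping INS-IGF2 and IGF2-AS), stood at 0.0236 and 0.0255 FPKM with siNeg, 1.15 and 1.36 with siEWSR1, and 0.404 and 0.498 with siFLI1. IGFBP4, an inhibitory binding protein, stood at 48.5 and 49.7, 136 and 141, and 229 and 249. IGF2BP1, an RNA-binding protein that stabilizes IGF2 and other mRNAs, stood at 75.1 and 78.4, 51.2 and 47.2, and 40.2 and 37.8. IGF2 (0.88 ± 0.13) and IGF2BP1 (0.33 ± 0.06) were higher with siEWSR1 than with siFLI1, and IGFBP4 (-0.78 ± 0.06) and IGFBP2 (-0.37 ± 0.06) lower (limma adjusted p = 0.0232, 0.0427, 0.00369 and 0.0321), 4 of 19 measured genes. The list's median was 0.03. IGF2 met the filter only through the siEWSR1 group, where it is high, so its call and its place among the 4 support nothing here. IGFBP4 alone of the 4 passed without siFLI1 replicate 1 (0.0372 to 0.136), siEWSR1 replicate 2 (0.0105 to 0.0964) or siNeg replicate 1 or 2 (up to 0.0889 and 0.0891), and none without siFLI1 replicate 2 (0.0595 to 0.238). IGF2BP1 also lost its call without siEWSR1 replicate 1 (0.0682).

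Of 20 measured genes of the RNA interference machinery, 3 were higher with siEWSR1 and 0 lower, with a median of 0.07. AGO2, the slicing Argonaute, stood at 13.6 and 13.1 FPKM with siNeg, 11.3 and 10.3 with siEWSR1, and 8.4 and 8.25 with siFLI1. TNRC6A, the Argonaute partner GW182, stood at 13.2 and 12.6, 23.2 and 24.7, and 18.7 and 19. DGCR8, which recognises primary microRNAs together with DROSHA and overlaps TRMT2A, stood at 8.6 and 8.65, 14.9 and 15.6, and 12.2 and 12.6. AGO2 thus fell with either siRNA and the other two rose, and siEWSR1 exceeded siFLI1 in each (0.35, 0.33 and 0.28 on the log2 scale, limma adjusted p = 0.0416, 0.0346 and 0.0474). DICER1, which cuts precursor microRNAs, stood at 7.87 and 9.26 against 6.23 and 7.11 and was not called (0.34 ± 0.10, adjusted p = 0.102). Among 42 FET partners and splicing factors 1 was called, RBFOX2, a neural and muscle splicing regulator, at 38.8 and 40 with siEWSR1 against 28.8 and 30.7 with siFLI1 (0.40 ± 0.06, adjusted p = 0.0227). Of AGO2, TNRC6A, DGCR8 and RBFOX2, none passed without siFLI1 replicate 1 (0.123 to 0.191), siFLI1 replicate 2 (0.14 to 0.228), siEWSR1 replicate 2 (0.0649 to 0.151) or either siNeg library (0.0556 to 0.102), and AGO2 and DGCR8 failed without siEWSR1 replicate 1 (up to 0.0721).

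Of 15 measured replication-dependent histone genes of 21, 3 were higher with siEWSR1 and 0 lower, with a median of 0.24. Above 0 were 14 of 15 values, whereas 58.1% of all genes tested were below 0. HIST1H2AC stood at 2.04 and 2.78 FPKM with siNeg, 28.1 and 32.5 with siEWSR1, and 17.3 and 19.1 with siFLI1. HIST1H4H stood at 1.06 and 0.779, 3.25 and 4.38, and 0.956 and 1.58, so its siFLI1 libraries lay near siNeg, and HIST1H3D, which overlaps HIST1H2AD, at 1.46 and 1.51 against 0.662 and 0.618. The differences were 0.72, 1.30 and 0.80 on the log2 scale (limma adjusted p = 0.0388, 0.0298 and 0.0213). HIST1H4H and HIST1H3D met the filter only through the siEWSR1 group, where they are high. Their calls and their part in the count therefore support nothing here. Reads of near-identical histone and metallothionein copies cannot be told apart. None of the 3 histones passed without siFLI1 replicate 1 (0.099 to 0.181), siFLI1 replicate 2 (0.109 to 0.201) or siEWSR1 replicate 2 (0.073 to 0.124), and without siNeg replicate 1 or 2 HIST1H2AC alone did (up to 0.0575 and 0.0565).

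Of 20 measured metallothioneins and zinc transporters, 3 were higher and 1 lower with siEWSR1, with a median of 0.06. MT1F, a metal-binding metallothionein, stood at 17.1 and 17.3 FPKM with siNeg, 34.7 and 39.3 with siEWSR1, and 21.2 and 23.1 with siFLI1. SLC30A1, a zinc exporter induced by zinc, stood at 1.52 and 1.66, 5.83 and 6.05, and 2.91 and 4.01. MTF1, the zinc-sensing transcription factor of such genes, stood at 2.92 and 2.73, 3.71 and 3.63, and 2.64 and 2.79, so that its siFLI1 libraries overlapped siNeg. The zinc importer SLC39A1, which overlaps CREB3L4, was the member that was lower, at 60.6 and 58.6 against 72.4 and 75.8. The differences were 0.72 ± 0.08, 0.71 ± 0.13, 0.38 ± 0.08 and -0.31 ± 0.05 (limma adjusted p = 0.0109, 0.0396, 0.0476 and 0.034). MT1F alone passed without siEWSR1 replicate 2 (0.03 to 0.13 over the 4) or siNeg replicate 1 or 2 (up to 0.094 and 0.0939), MT1F and SLC39A1 without siEWSR1 replicate 1 (up to 0.0874), and none without siFLI1 replicate 1 or 2 (0.0911 to 0.19 and 0.0822 to 0.219).

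Of 33 measured genes of the interferon response and of double-stranded RNA sensing, 4 were lower with siEWSR1 and 0 higher, with a median of -0.16. IFITM2, an antiviral membrane protein with close paralogs, stood at 6.45 and 5.86 FPKM with siNeg, 9.33 and 10.5 with siEWSR1, and 13.7 and 15.4 with siFLI1 (-0.53). IRF1, an interferon-induced transcription factor, stood at 2.57 and 2.71 with siEWSR1 and 4.11 and 3.59 with siFLI1 (-0.47). IFI35, an interferon-induced protein, stood at 5.99 and 5.97 against 8.03 and 8.7 (-0.45), with siNeg between at 7.58 and 7.26, and the antiviral tether BST2 differed by -0.31, a call kept in 7 of 17 alternative fits. Of 14 NF-kB and inflammatory genes 1 was lower, the inhibitor NFKBIA (-0.46). The interferon count was 2 with quantile normalization, 1 without length and GC trends, and 0 without siEWSR1 replicate 2, either siFLI1 library or either siNeg library. Over IFITM2, IRF1, IFI35 and NFKBIA the adjusted p was then 0.0567 to 0.114 without siEWSR1 replicate 2, 0.0974 to 0.186 and 0.109 to 0.204 without siFLI1 replicate 1 and 2, and 0.0565 to 0.0899 without either siNeg library, and without siEWSR1 replicate 1 IFI35 alone passed (up to 0.0824).

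Stress genes gave a few calls. Of 37 serine synthesis and ATF4 targets 3 were lower with siEWSR1: PSPH, the stress-induced chromatin protein NUPR1 and the bZIP repressor JDP2, with a median of -0.10 over the list. NUPR1 stood at 36.5 and 28.5 FPKM with siNeg, 36.8 and 44.4 with siEWSR1, and 66.3 and 77.9 with siFLI1 (-0.82). JDP2 stood at 0.891 and 0.825 with siEWSR1 against 1.39 and 1.4 with siFLI1 (-0.48). JDP2 met the filter only through the siFLI1 group, where it is higher than with siEWSR1, so its call supports nothing here. ASNS, asparagine synthetase, fell from 223 and 180 with siNeg to 20.5 and 17.8 with siEWSR1 and 21.0 and 18.5 with siFLI1, and the siRNA groups overlapped (difference -0.04, interval -0.33 to 0.25). Of 25 p53 targets, SESN1, a sestrin that restrains mTOR, was higher with siEWSR1 (4.52 and 4.97 against 2.92 and 3.36, 0.53) and CDKN1A and TP53INP1, an autophagy and apoptosis gene, lower (TP53INP1 9.09 and 11.9 against 16.5 and 20.2, -0.78). Of 33 hypoxia and glycolysis genes 2 were lower, the vasodilator peptide gene ADM (-0.69) and the carbonic anhydrase CA12 (-0.49). Of these 8 genes, CDKN1A and PSPH passed without siFLI1 replicate 1 (adjusted p = 0.0354 to 0.164 over the 8) and none without siFLI1 replicate 2 (0.0595 to 0.222). Without siEWSR1 replicate 2, NUPR1, JDP2 and SESN1 failed (up to 0.13), and without siEWSR1 replicate 1 NUPR1 and JDP2 did (up to 0.0571). Without siNeg replicate 1 or 2 JDP2, SESN1, TP53INP1 and ADM failed (up to 0.0837 and 0.0853).

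Of 14 measured neural and neuroendocrine genes, 3 were lower with siEWSR1 and 1 higher, with a median of 0.01. L1CAM, a neural adhesion molecule, stood at 0.366 and 0.338 FPKM with siNeg, 4.61 and 4.34 with siEWSR1, and 7.76 and 8.03 with siFLI1 (-0.76 ± 0.08, limma adjusted p = 0.0109). NCAM1, another neural adhesion molecule that overlaps NCAM1-AS1, stood at 31.8 and 31.6, 55.8 and 58.4, and 45 and 44.9 (0.34 ± 0.05, adjusted p = 0.0233). These adhesion genes, each raised by either siRNA, thus differed in opposite directions between the siRNAs. The neurotrophin receptor NGFR differed by -0.53 and the neuronal tubulin TUBB3 by -0.49. Of 15 ETS factors 1 was called, ETS2, at 12.5 and 13.3 with siEWSR1 and 18.2 and 18.7 with siFLI1 (-0.50 ± 0.06, adjusted p = 0.0149). Of L1CAM, NGFR, TUBB3, NCAM1, ETS2, SOX6 and UPP1, none passed without siFLI1 replicate 1 (0.085 to 0.196) or 2 (0.121 to 0.246), ETS2 and L1CAM passed without siEWSR1 replicate 2 (up to 0.156 over the 7), and these and NGFR without siNeg replicate 1 or 2 (up to 0.102). Without siEWSR1 replicate 1, SOX6 and UPP1 failed (up to 0.0609).

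Of 28 ERK-driven early genes and feedback inhibitors 2 were lower, the phosphatase DUSP7 (-0.42) and the transcription factor KLF4 (-0.28), and of 26 heat shock genes and chaperones 1, the co-chaperone DNAJB2 (-0.32). Each of these 3 lost its call when any 1 library was left out (limma adjusted p = 0.0625 to 0.246). Mitosis (38 measured), DNA replication (43), cholesterol synthesis (26), TGF-beta and BMP signalling (30), DNA damage and R-loop genes (30) and ribosomal proteins (40) had 0 calls by limma. At an unadjusted p under 0.05 these lists held 1, 3, 5, 1, 4 and 4 genes, in that order, against 23.8% of all genes tested. AURKB, a mitotic kinase, stood at 114 and 115 FPKM with siNeg, 38.5 and 30.7 with siEWSR1, and 35.3 and 31.6 with siFLI1, with overlapping siRNA groups and an interval of -0.22 to 0.30 for the difference. MCM2, a replicative helicase subunit, stood at 38.4 and 30.2 against 34.6 and 33.4 (interval -0.25 to 0.26). In cholesterol synthesis 24 of 26 values were below 0, as were 58.1% of all genes tested, and the list's median was -0.17. Without siEWSR1 replicate 1, members of the cholesterol, DNA damage and TGF-beta or BMP lists were called lower. All these counts of 0 held in the fits rescaled by quantiles and by medians, and without length and GC trends 1 cholesterol gene was lower. Among ribosomal proteins, 1 gene was lower without siFLI1 replicate 1, and 1 was higher without siNeg replicate 1 or 2 and in the fit of only the 4 siRNA libraries.

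A few small RNAs were listed at 0 outside 1 siRNA group. MIR3911, a microRNA hairpin, was listed at 43.6 and 36.8 FPKM with siEWSR1 and 0 in the other 4 libraries. SNORA51, a small nucleolar RNA inside NOP56 (chromosome 20, 2635713 to 2635844), was listed at 7.95 and 7.09 with siEWSR1 and 0 elsewhere, and NOP56, a snoRNP protein, at 73.6 and 67.6 against 72.5 and 69.8. The snRNA gene RNVU1-8 was listed at 5.21 and 5.41 with siFLI1 and 0 elsewhere. SNORD131, inside MRPL23, was listed at 8 and 14.7 with siEWSR1, 4.19 and 4.33 with siFLI1, and 0 with siNeg. Since such short features reach these FPKM with few fragments and an exact 0 may be a failed estimate, no fold is given. These small RNAs passed the filter through the groups where they are listed above 0, so their calls support nothing here. NOP56 was not called.

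Length and base composition moved with the comparison. Called lower genes had a median transcript length of 2744 bases and 52.9% GC, called higher genes 5605 bases and 46.6%, and all genes tested 3567 bases and 48.4%. From the shortest to the longest quintile of genes the median difference of siEWSR1 minus siFLI1 went from -0.102 through -0.064, -0.032 and -0.004 to 0.046. From the lowest to the highest GC quintile it went from 0.036 through -0.009, -0.035 and -0.056 to -0.098. The siEWSR1 libraries differed from each other in this respect, with deviations in the highest GC quintile of 0.106 for replicate 1 and -0.038 for replicate 2, against 0.133 and 0.13 in the siFLI1 libraries. With these trends taken out, an alternative chosen after seeing the data, 443 of the 581 calls that could be fitted were kept and none changed sign.

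**Figure D5:**
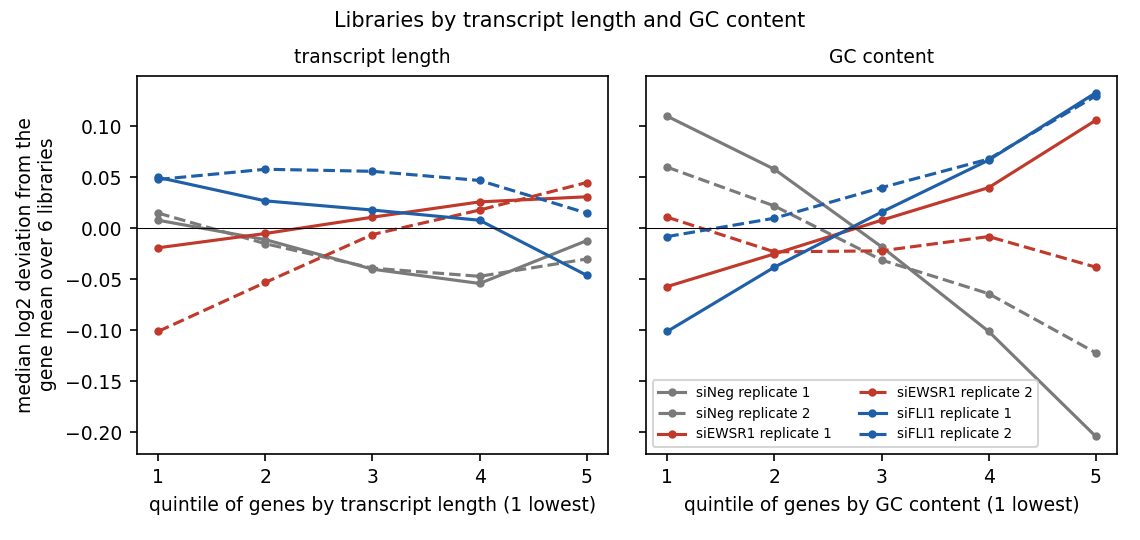
Median log2 deviation of each library from the gene mean over 6 libraries (y axis) in quintiles of genes by transcript length and by GC content (x axes), siNeg grey, siEWSR1 red, siFLI1 blue, replicate 1 solid and replicate 2 dashed. In the highest GC quintile the siFLI1 libraries lie at 0.133 and 0.13, and siEWSR1 replicates 1 and 2 at 0.106 and -0.038.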

How the data were processed

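The authors deposited gene-level FPKM values for 6 libraries, with TopHat2 2.0.13, Cufflinks, Cuffdiff and hg19 listed, without roles, per the submitters' processing notes. The sources used here do not give the annotation, strand setting or library kit, so reads of overlapping genes cannot be told apart. FPKM of the 380 symbols on more than 1 row was summed. Levels were taken as log2(FPKM + 0.5) and fitted by limma 3.58.1 (R 4.3.3) at once over all 6 libraries with a variance trend (3 residual and 3.59 prior degrees of freedom). All folds given are on this scale, so in low genes they are smaller than the ratios of the FPKM shown. P-values are two-sided and Benjamini-Hochberg adjusted over 12808 genes, with a threshold of 0.05, and the script was tested on simulated data. The members and the 29 gene lists were chosen with earlier results of these data known. Named genes are EWSR1, FLI1 and TAF15. To these the rule adds the 12 highest and 12 lowest called differences at a mean of at least 5 FPKM in the higher group, up to 3 called members per list and direction, and up to 6 genes per siNeg position. Other list members are named as examples, and some results are not reported here. Alternatives changed the pseudocount, filter, scaling, variance trend and libraries. Lengths and GC are those of the longest GENCODE 29 transcript (97.6% of genes matched). When an siRNA or siNeg library was left out, the lone library of its group was assumed to vary like the other groups.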

Additional observations from a re-analysis of the deposited data

How the results depend on the processing

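The number of genes higher with siEWSR1 than with siFLI1, 132 as reported, was 24 with no filter on low values, 80 at a mean FPKM of at least 5, 239 with quantile normalization, 22 in a fit of only the 4 siEWSR1 and siFLI1 libraries and 257 with length and GC trends removed, and ranged from 3 to 108 when 1 library was left out. The number lower, 464 as reported, was 93 with no filter, 302 at a mean FPKM of at least 5 and 172 in the fit of 4 libraries, and ranged from 2 to 607 when 1 library was left out. Against siNeg, 4 signs reversed: with quantile normalization ITGA11 with siEWSR1 (-0.26), IGF2 (-0.44) and HIST1H3D (-0.49) with siFLI1, and with length and GC trends removed SLC39A1 with siFLI1 (-0.22). The cause was not tested. The EWSR1 difference ranged from -0.64 to -0.54 when 1 library was left out. The FLI1 difference between siEWSR1 and siFLI1 missed the threshold in every fit run. Replicate numbers did not pair the samples (correlations of deviations -0.241, -0.079 and 0.078). With the replicate number as a block there were 75 higher and 327 lower genes, 365 of the 596 calls were kept, and the EWSR1 difference was -0.59 (adjusted p = 0.0137). FPKM gives no depth, and 2 libraries per group limit the precision.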
